A study of Mus musculus with 4 samples.

Results

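The SoxF and Krüppel-like transcription factors examined here were 10 genes, taken by name: *Sox7*, *Sox17*, *Sox18*, *Klf2*, *Klf3*, *Klf4*, *Klf6*, *Klf7*, *Klf9* and *Klf10*. The expression table lists 12693 genes, and all 10 are among them. The table comes from RNA-seq of brain endothelial cells (ECs) at embryonic day 18, sorted from the cerebral cortex by CD31, a surface protein of ECs. The study asked what the loss of the forkhead transcription factor FOXQ1 changes in these cells. Of the 4 samples, all from C57BL/6 brain, 2 carried the WT genotype and 2 the genotype FOXQ1fl/fl;Tie2-Cre, called *Foxq1* cKO here. Per the study's methods, the controls were littermates without the Cre transgene. The Tie2 promoter is active in ECs and also in blood cells, so *Foxq1* can be deleted in both. Neither the labels nor the methods say whether a sample was 1 embryo or a pool, so the p-values measure the spread between these samples, which may be technical.

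SOX7, SOX17 and SOX18 make up the SoxF group, which binds DNA through an HMG box. They are made in most developing ECs, overlap in function, and act with Notch signalling in arteries and upstream of *Prox1* in lymphatic vessels. Krüppel-like factors (KLFs) bind GC-rich and CACCC sequences through zinc fingers at the end of the protein. KLF2 and KLF4 are induced in ECs by laminar blood flow through the kinases MEKK3, MEK5 and ERK5 and the MEF2 factors, a cascade that the cerebral cavernous malformation (CCM) proteins hold back, and they are known to raise *Nos3* and *Thbd* and to lower *Edn1* and *Angpt2*.

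The libraries held 15827166 to 21466436 reads on listed genes. The targeted gene, *Foxq1*, was at 353 and 297 normalized counts (reads divided by a size factor for each library) in wild-type against 5.44 and 32.6 in *Foxq1* cKO, as its labels have it. Its cKO mean was 5.84% of wild-type, with a log2 fold change of -4.47 ± 1.04 (SE) and an adjusted p of 0.857 in limma (0.00854 in DESeq2). All 11 endothelial markers were listed, and their summed level was 351141 to 380583 in wild-type against 304825 to 342414 in *Foxq1* cKO, lower in both cKO libraries. Pericyte and smooth muscle markers were present as well (6 of 9 listed, summed level 127924 to 136961, with *Acta2*, *Tagln* and *Myh11* not listed). The 8 microglia and macrophage markers summed to 6552 and 7920 in wild-type against 4913 and 5237 in *Foxq1* cKO. Of these markers, 4 had a positive and 4 a negative log2 fold change, so the sum does not stand for each of them. *Csf1r*, the best expressed, had 3365 and 2579 normalized counts in wild-type against 1732 and 1587 in *Foxq1* cKO. *Mrc1*, read after its values were seen, had 21.9 and 1217 in wild-type against 291 and 132 in *Foxq1* cKO. KLF genes are also used by pericytes, microglia and blood cells, and in bulk samples fewer cells of a type and less RNA per cell cannot be told apart. The part of these shifts in the values below was not tested.

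None of the 10 factors passed the test between *Foxq1* cKO and wild-type. Group differences were fitted with limma on log2(normalized count + 1) for 12472 genes, and a gene was called at an unadjusted p under 0.05. At that level limma called 0 of the 10 factors, beside 5.22% of all genes tested. DESeq2 on the recovered reads called 1 of the 10, *Sox7* (6.49% of all genes), and edgeR called 0 of the 10 (4.98% of all genes). At an adjusted p (Benjamini-Hochberg) under 0.05, these tools called none of the factors, beside 0.465% of all genes in DESeq2 and 0 genes in limma and edgeR, and the smallest adjusted p of a factor was 0.857 in limma, 0.766 in DESeq2 and 0.937 in edgeR. With 2 samples against 2, an exact permutation test of a single gene cannot go below p = 0.333.

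The estimated differences of the factors were small. Their median log2 fold change was -0.14, against 0.0086 over all genes tested, and the median size of the change was 0.18 against 0.37. Of the 10, 7 had a negative estimate and 3 a positive one, and under scaling to the endothelial markers, which moved the median of all genes to 0.19, the negative estimates of *Sox17*, *Klf2*, *Klf4* and *Klf6* turned positive. *Sox7*, *Klf2* and *Klf6* were lower in both *Foxq1* cKO libraries than in either wild-type library, a pattern shown by 18% of all genes tested. *Klf10* was higher in both, a pattern shown by another 18% of all genes. In the other 6 the groups overlapped, whereas 36% of all genes tested had groups that did not. In 7 of the 10 factors, 1 of the groups had a larger gap between its own libraries than the difference between the group means. The median standard error of the factors was 0.25 against 0.50 over all genes, and they held 160 to 10124 reads per library. *Klf9* had a larger standard error, at 0.63. The 95% interval stayed within 1 log2 unit (a 2-fold change) of 0 in 6 of the 10 factors. It reached further for *Klf3*, *Klf4*, *Klf9* and *Klf10*.

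**Figure D1:**
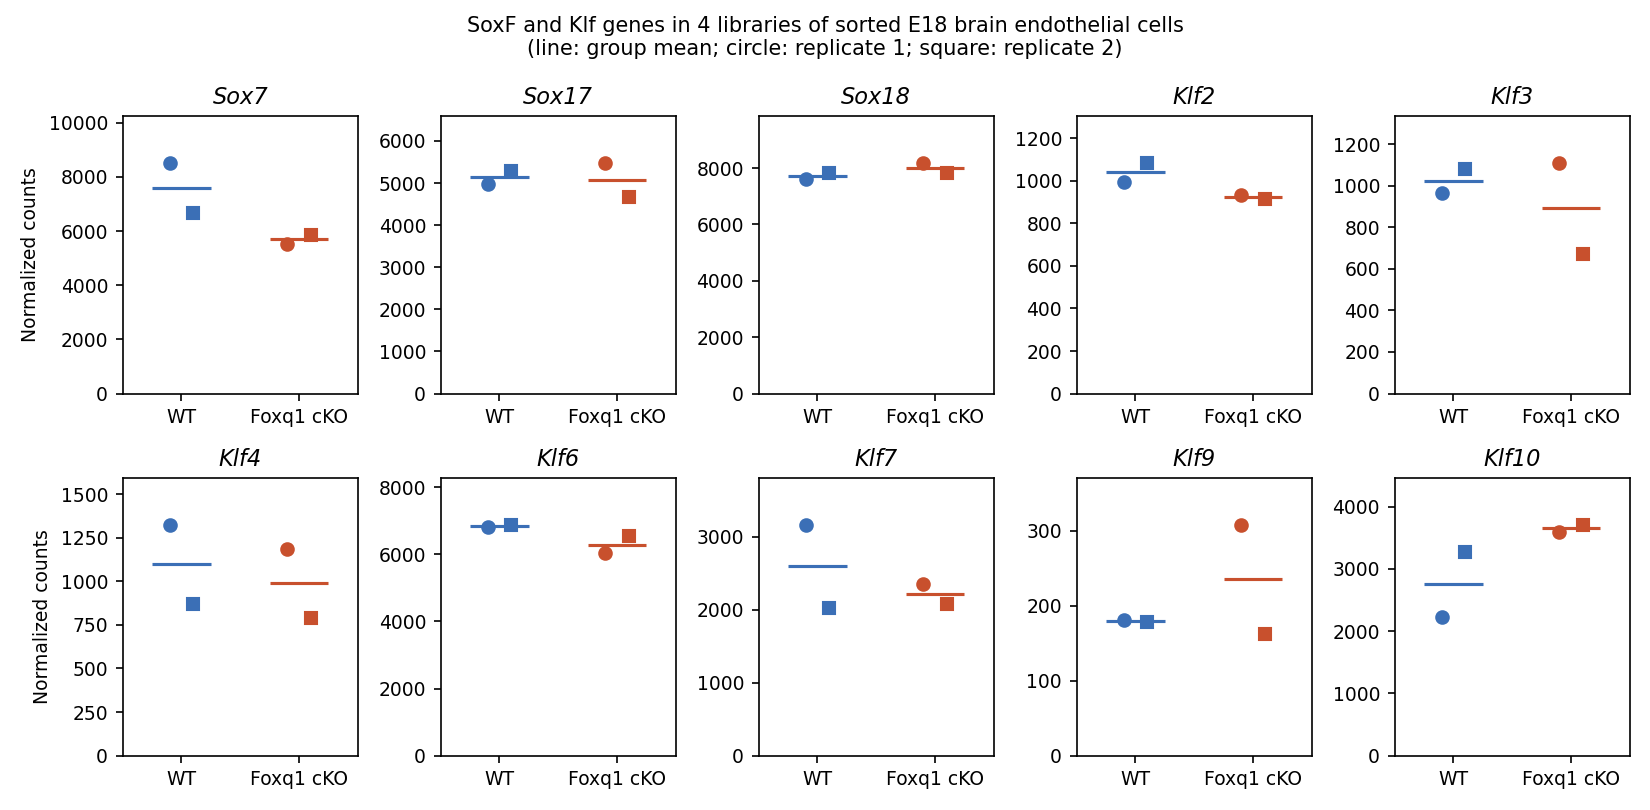
Normalized counts of each of the 10 factors, with a separate linear axis for each factor and 1 point per library (2 wild-type, 2 *Foxq1* cKO). Lines mark the group means. The cKO points lie below both wild-type points for *Sox7*, *Klf2* and *Klf6* and above both for *Klf10*, and the groups overlap in the other 6.

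**Figure D2:**
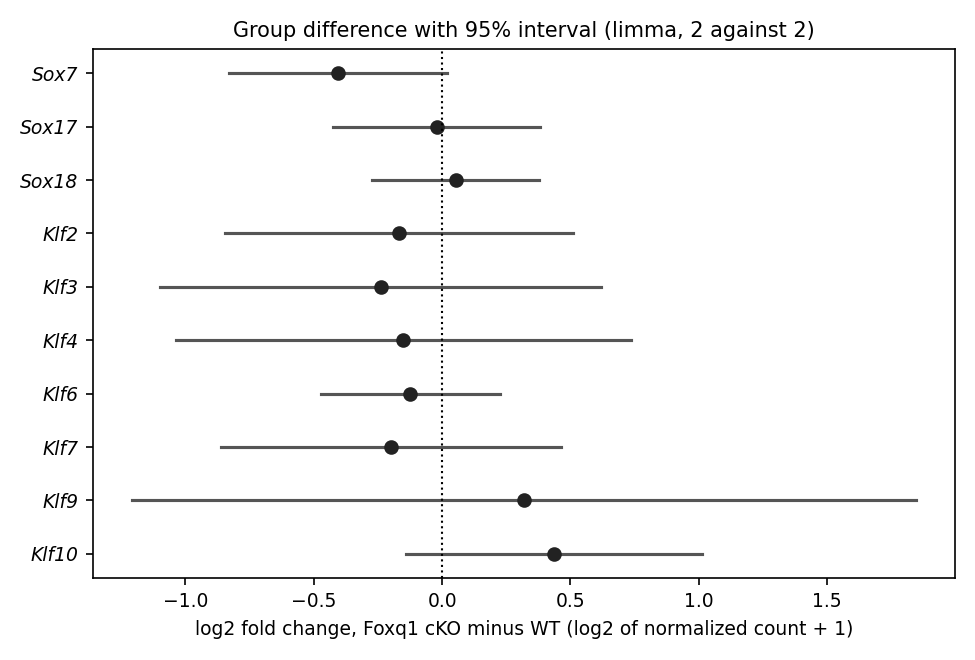
Log2 fold change of each factor, *Foxq1* cKO minus wild-type, on the log2(normalized count + 1) scale, with the 95% interval of the limma fit as a line. The interval includes 0 for all 10 factors, is narrowest for *Sox18* (-0.27 to 0.38) and widest for *Klf9* (-1.21 to 1.84).

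Among the SoxF genes, *Sox7* had the largest difference. *Sox7* (chr14:63943673-63950732, plus strand, GRCm38) was at 8531 and 6671 normalized counts in wild-type against 5526 and 5871 in *Foxq1* cKO. Both cKO libraries were lower than both wild-type libraries, and the wild-type libraries stood further apart from each other than the cKO libraries did. The wild-type mean was 7601 ± 1315 (SD, n = 2), and the *Foxq1* cKO mean of 5698 ± 244 (SD, n = 2) was 75.0% of it. The log2 fold change was -0.41 ± 0.17 (SE), with a 95% interval from -0.83 to 0.02. In limma its unadjusted p was 0.0581 and its adjusted p 0.857. This difference lay close to the line and moved across it with the tool and the library: the unadjusted p was 0.0474 in DESeq2, and without wild-type replicate 2 limma gave a log2 fold change of -0.58 with an unadjusted p of 0.0205. Without wild-type replicate 1 it was -0.23 with an unadjusted p of 0.283, and without either *Foxq1* cKO library the unadjusted p was 0.198 (replicate 1 left out) and 0.128 (replicate 2 left out). Scaling to the endothelial markers, which were themselves lower in *Foxq1* cKO, brought it to -0.22 with an unadjusted p of 0.230.

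*Sox17* (chr1:4490931-4497354, minus strand), the SoxF gene most tied to arteries, had 4987 and 5292 normalized counts in wild-type against 5487 and 4668 in *Foxq1* cKO. The highest and the lowest value were both cKO libraries. The cKO mean was 98.8% of wild-type, with a log2 fold change of -0.02 ± 0.17 (SE) and a 95% interval from -0.43 to 0.38. *Sox18* (chr2:181669836-181671640, minus strand), which is mutated in human disease of hair, lymphatic and blood vessels, had 7609 and 7836 normalized counts in wild-type against 8195 and 7819.9 in *Foxq1* cKO. These 4 values lay closer together than those of any other factor, and the second cKO library fell between the wild-type libraries. The log2 fold change of *Sox18* was 0.05 ± 0.13 (SE), with a 95% interval from -0.27 to 0.38.

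The makeup of the SoxF group was then compared within each library, using normalized counts per kb of exon. *Sox18* made up 56.4% and 60.7% of the SoxF total in the wild-type libraries and 64.2% and 63.6% in the *Foxq1* cKO libraries. *Sox7* made up 31.1% and 25.4% in wild-type against 21.2% and 23.5% in *Foxq1* cKO. *Sox17* made up 12.6% and 13.9% against 14.6% and 12.9%. The *Sox7* share was thus lower and the *Sox18* share higher in both cKO libraries, while the *Sox17* shares overlapped. Shares of a total move against each other by construction. For normalized counts, 36% of all genes tested had groups that did not overlap. Relative to 2 endothelial junction genes, chosen after their values were seen, *Sox7* gave different pictures. The ratio of *Sox7* to *Cdh5*, which encodes VE-cadherin, was 1.87 and 1.56 in wild-type against 1.16 and 1.22 in *Foxq1* cKO. The ratio of *Sox7* to *Pecam1*, which encodes CD31, was 0.577 and 0.483 in wild-type against 0.496 and 0.438 in *Foxq1* cKO, so that these groups overlapped.

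Neither gene of the flow-induced pair was called between the genotypes. *Klf2* (chr8:72319033-72321656, plus strand) had 993 and 1086 normalized counts in wild-type against 933 and 916 in *Foxq1* cKO. Both cKO libraries were slightly below both wild-type libraries. The cKO mean was 88.9% of wild-type, and the log2 fold change was -0.17 ± 0.28 (SE), with a 95% interval from -0.85 to 0.51 and an unadjusted limma p of 0.569. *Klf4* (chr4:55527143-55532466, minus strand) had 1325 and 870.3 normalized counts in wild-type against 1187 and 787 in *Foxq1* cKO. Here replicate 1 was the higher library in both groups, and the gap between libraries of 1 genotype (0.61 and 0.59 on the log2 scale) was larger than the difference between genotypes. The log2 fold change of *Klf4* was -0.15 ± 0.36 (SE), with a 95% interval from -1.04 to 0.74. Under scaling to the endothelial markers, both estimates turned to the other side of 0, at 0.016 for *Klf2* and 0.032 for *Klf4*.

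Promoter windows from RefSeq (GRCm38.p6), from 250 bases before to 50 bases after the annotated start, matched 6 of the 10 factors: *Klf2*, *Klf3*, *Klf4*, *Klf6*, *Klf7* and *Klf9*. Because FOXQ1 is a forkhead protein, the windows were searched on both strands for TGTTTA, a forkhead core. It was found in 2 of the 6, *Klf4* and *Klf9*, and in 13.4% of all 32851 windows of this length. The first base of the match lay 167 bases before the RefSeq start of *Klf4* (position 55532475, which is 9 bases before the start in the annotation that gave the gene span above) and 99 bases before the start of *Klf9* (23141226 in both). The stretches are chr4:55532626-55532654 (minus strand) and chr19:23141115-23141143 (plus strand). Both stretches are printed 5′ to 3′ on the strand of the gene, with the core in capitals. In *Klf9* the core is read on the opposite strand.
*Klf4*: gtgcgcggagttTGTTTAtttagctacca
*Klf9*: agggggagaaagTAAACAgagttgaatca
Neither of these genes was called between genotypes. CACCC, the core that KLFs themselves bind, was found on either strand in 4 of the 6 windows (57.5% of all windows), with 5 matches in *Klf3*, 3 in *Klf7* and 1 each in *Klf2* and *Klf9*. GGGCGG, the GC box bound by the related Sp factors, was found in 5 of the 6 (35.7% of all windows), with 6 matches in *Klf3* and 4 in *Klf4*. A match of letters is a description of the sequence and not a bound site. The study itself reports that FOXQ1 prefers GTTTC near the starts of *Adck1* and *Hap1*, a motif not searched here. It also mapped FOXQ1 binding on DNA in ECs by CUT&Tag, and those data were not used here.

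*Klf6* and *Klf10* were the more abundant KLFs. *Klf6*, which is induced by vessel injury, had 6810.1 and 6883 normalized counts in wild-type against 6038 and 6543 in *Foxq1* cKO (chr13:5861482-5870394, plus strand). The wild-type libraries were almost equal, and both cKO libraries were lower. The cKO mean of *Klf6* was 91.9% of wild-type, and the log2 fold change was -0.12 ± 0.14 (SE), with a 95% interval from -0.47 to 0.22, and it was 0.061 under scaling to the endothelial markers. *Klf10* (chr15:38291463-38300706, minus strand), an early response gene of TGF-beta, had 2228 and 3276 normalized counts in wild-type against 3600.2 and 3712 in *Foxq1* cKO. The cKO libraries were close together and above both wild-type libraries, of which replicate 1 was the lowest of all. The wild-type mean of *Klf10* was 2752 ± 741 (SD, n = 2), and the *Foxq1* cKO mean of 3656 ± 79.1 (SD, n = 2) was 133% of it. Its log2 fold change of 0.44 ± 0.24 (SE) had a 95% interval from -0.14 to 1.01 and an unadjusted p of 0.115 in limma. The value rested on the wild-type libraries. Without wild-type replicate 2 the log2 fold change was 0.71 with an unadjusted p of 0.0201, and over all samples left out in turn it ranged from 0.16 to 0.71.

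Per kb of exon, the total of the 7 KLF genes among the factors was nearly the same in all libraries. It was 3568 and 3607 in wild-type against 3582 and 3481 in *Foxq1* cKO, without the other KLF genes of the table. *Klf10* made up 14.9% and 21.7% of it in wild-type against 24.0% and 25.5% in *Foxq1* cKO. The share of *Klf6* was 43.5% in each wild-type library and 38.4% and 42.8% in the cKO libraries. The share of *Klf2* was 15.1% and 16.3% in wild-type against 14.1% and 14.2% in *Foxq1* cKO. The shares of these 3 genes did not overlap between the groups, with *Klf10* higher and *Klf6* and *Klf2* lower in *Foxq1* cKO. Those of *Klf3*, *Klf4*, *Klf7* and *Klf9* overlapped. For normalized counts, 36% of all genes tested had groups that did not overlap, and shares of 1 total move against each other by construction.

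*Klf3*, *Klf7* and *Klf9* overlapped between the groups. *Klf3* (chr5:64803388-64832901, plus strand), which represses genes through the corepressor CtBP, had 966 and 1081 normalized counts in wild-type against 1112 and 673 in *Foxq1* cKO. The cKO group held both the highest and the lowest library. Its log2 fold change was -0.24 ± 0.35 (SE), which became 0.12 without *Foxq1* cKO replicate 2. *Klf7* (chr1:64029447-64122282, minus strand), best known from neurons, had 3164 and 2027 normalized counts in wild-type against 2346 and 2076 in *Foxq1* cKO. Both cKO libraries lay between the wild-type libraries, and the log2 fold change was -0.20 ± 0.27 (SE). *Klf9* (chr19:23141226-23168134, plus strand), which glucocorticoid and thyroid hormone induce, was the lowest of the factors, with 180.3 and 178 normalized counts in wild-type against 308 and 163 in *Foxq1* cKO. Only 1 of the cKO libraries was high, and the log2 fold change of 0.32 ± 0.63 (SE) had a 95% interval from -1.21 to 1.84. It became -0.14 without *Foxq1* cKO replicate 1.

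In the GRCm38 annotation, the spans of *Sox17*, *Klf3* and *Klf7*, introns included, each overlap a gene on the opposite strand that the table does not list. *Foxq1* does so as well, over 3200 bases with *A530084C06Rik*. Strandedness of the counting is not given in the sources used here, so reads of such partners could not be told apart from those of the 3 factors or of *Foxq1*.

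The order of the factors was read from normalized counts per kb of exon, averaged over the 4 libraries. *Sox18* led with 4855, which placed it in the top 0.797% of the 12678 genes with an annotated length. *Sox7* followed with 2016, *Klf6* with 1496 and *Sox17* with 1070.5, all in the top 6.25%. *Klf10* had 767, *Klf2* had 532, *Klf4* had 342 and *Klf7* had 296 normalized counts per kb. *Klf3*, at 85.2, and *Klf9*, at 43.1, lay below the median gene on this length. The ranges over the 4 libraries overlapped between *Klf10* and *Klf2*, between *Klf4* and *Klf7* and between *Klf3* and *Klf9*, so these neighbours were not set apart. The length used mattered for some of them. With the longest transcript in place of all exons, *Sox17* (1576 per kb) ranked just above *Klf6* (1555 per kb), with overlapping ranges, and *Klf3* was at 183 per kb, in the top 42.6% and so above the median gene, and set apart from *Klf9*. On that length *Klf10* and *Klf2* were also set apart, and *Sox7* and *Sox17* overlapped.

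**Figure D3:**
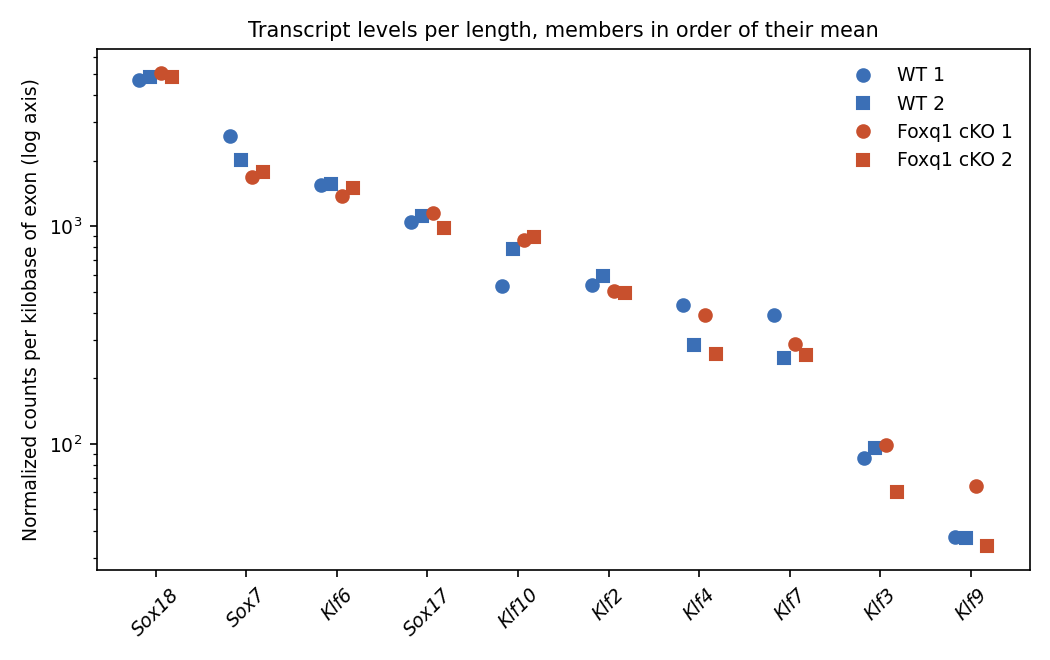
Normalized counts per kb of exon for the 10 factors on a log axis, with 1 point per library (2 wild-type, 2 *Foxq1* cKO). *Sox18* (mean 4855) lies above all points of every other factor, and *Klf3* (85.2) and *Klf9* (43.1) lie lowest.

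The genes around KLF2 and KLF4 were examined next. Of the 13 upstream genes, which encode the CCM proteins, the MEKK3 to ERK5 cascade, the MEF2 factors, their deacetylases and the mechanosensor PIEZO1, 1 was called lower and 0 higher, beside 3.05% and 2.17% of all genes, and the median log2 fold change was -0.04. DESeq2 also called *Map2k5* and *Hdac7*, named here after their values were seen, higher, at unadjusted p-values of 0.0496 and 0.0457 (0.0772 and 0.0712 in limma). The gene called was *Heg1*, the receptor that holds the CCM complex at the membrane. It had 4829 and 4560.0 normalized counts in wild-type against 3012 and 3819 in *Foxq1* cKO, with a log2 fold change of -0.47 ± 0.19 (SE) and an unadjusted p of 0.0487. This call was fragile, since it was kept in 5 of 12 alternatives and was lost when wild-type replicate 1, wild-type replicate 2 or *Foxq1* cKO replicate 1 was left out.

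Of 12 target genes of KLF2 and KLF4, 10 were tested, with *Aqp1* and *Ptgds* not listed. Limma called 3 of the 10 lower and 0 higher at an unadjusted p under 0.05, beside 3.05% and 2.17% of all genes, and the median log2 fold change was -0.39. *Edn1*, which encodes the vasoconstrictor endothelin-1, had 2585 and 1383 normalized counts in wild-type against 528 and 362 in *Foxq1* cKO. All cKO values were far below the wild-type values, and their mean was 22.4% of wild-type. For *Edn1* the log2 fold change was -2.11 ± 0.42 (SE), with an adjusted p of 0.857 in limma and 0.000187 in DESeq2, and it was called in each of the 4 fits that left out 1 library. *Angpt2*, which encodes the TIE2 ligand angiopoietin-2, had 1823 and 1086 normalized counts in wild-type against 544 and 701 in *Foxq1* cKO, with a log2 fold change of -1.19 ± 0.37 (SE). *Cav1*, which encodes the caveolar coat protein caveolin-1, had 7999.9 and 5365 normalized counts in wild-type against 4077 and 3668 in *Foxq1* cKO, with a log2 fold change of -0.76 ± 0.23 (SE). The unadjusted limma p was 0.0179 for *Angpt2* and 0.0153 for *Cav1*, and both calls were lost without wild-type replicate 1. The call of *Angpt2* was also lost without *Foxq1* cKO replicate 1 and that of *Cav1* without *Foxq1* cKO replicate 2.

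*Edn1* and *Angpt2* are genes that KLF2 lowers, and the genes best known to be raised by it were read beside them, chosen after their values were seen. *Nos3*, which encodes endothelial nitric oxide synthase, had 4675 and 5915 normalized counts in wild-type against 5903 and 5542 in *Foxq1* cKO, with a log2 fold change of 0.12 ± 0.18 (SE). *Thbd*, which encodes the anticoagulant receptor thrombomodulin, had 2559.9 and 2644 in wild-type against 2934 and 3465 in *Foxq1* cKO, with a log2 fold change of 0.29 ± 0.19 (SE). Neither was called, at unadjusted limma p-values of 0.520 and 0.179. Of the 10 target genes tested, 4 had a positive and 6 a negative log2 fold change. Among the negative ones not named so far, *Nqo1* had 244 and 201 normalized counts in wild-type against 26.1 and 180 in *Foxq1* cKO. The log2 fold change was -1.67 ± 1.04 (SE) for *Nqo1* and -0.63 ± 0.55 (SE) for *Adamts4*.

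All 17 partners and targets of the SoxF factors were tested, and limma called 1 lower and 0 higher, beside 3.05% and 2.17% of all genes, with a median log2 fold change of -0.23. The list shares *Cdh5*, *Kdr* and *Cldn5* with the endothelial markers. The gene called was *Prox1*, the lymphatic regulator that SOX18 activates. Markers of other cells were present in these libraries, and which cells the *Prox1* reads came from was not tested. *Prox1* had 431 and 351 normalized counts in wild-type against 49.0 and 123 in *Foxq1* cKO, with a log2 fold change of -2.31 ± 0.71 (SE) and an unadjusted p of 0.0173. Its groups stood well apart, but the call was lost without wild-type replicate 1 and without *Foxq1* cKO replicate 1. Of the Notch genes that act with SoxF in arteries, *Dll4*, chosen after its values were seen, had 3167 and 3473 normalized counts in wild-type. It had 4092 and 4093 in *Foxq1* cKO, with a log2 fold change of 0.30 ± 0.17 (SE) and an unadjusted limma p of 0.124. The other Notch genes of the list, also read after their values were seen, had negative log2 fold changes. These were -0.28 for *Notch1*, -0.36 for *Notch4*, -0.56 for *Rbpj*, -0.67 for *Hey1* and -0.30 for *Hey2*. *Hey1* was lower in both cKO libraries, with an unadjusted p of 0.108 in limma and 0.0330 in DESeq2. The arterial connexin gene *Gja5*, chosen in the same way, had 340 and 292 in wild-type against 9.80 and 136 in *Foxq1* cKO, with a log2 fold change of -3.04 ± 1.26 (SE) and an unadjusted p of 0.0524. DESeq2 gave -2.11 with an unadjusted p of 0.0439 for *Gja5*, and with 1 library left out the limma value ranged from -4.87 (without *Foxq1* cKO replicate 2) to -1.20 (without *Foxq1* cKO replicate 1). Also in this list, the arterial marker *Gja4* had a log2 fold change of only -0.12 ± 0.15 (SE). The arterial marker *Efnb2* went the other way, with 149 and 89.7 normalized counts in wild-type against 184 and 253 in *Foxq1* cKO. Its log2 fold change was 0.89 ± 0.67 (SE).

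*Klf2*, *Klf4*, *Klf6* and *Klf10* are also early response genes, switched on within minutes by growth factors and by handling of cells. Of 21 other immediate early genes, 17 were tested, and 1 was called lower and 0 higher, beside 3.05% and 2.17% of all genes, with a median log2 fold change of -0.16. The gene called was *Egr1*, a zinc-finger factor, with 12483 and 11349 normalized counts in wild-type against 8486 and 8734 in *Foxq1* cKO and a log2 fold change of -0.47 ± 0.13 (SE, unadjusted p of 0.0112). This call was lost without wild-type replicate 1, without *Foxq1* cKO replicate 1, under scaling to the endothelial markers and in eBayes without a trend. The summed level of the 17 genes was 97291 and 88903 in wild-type against 84904 and 86088 in *Foxq1* cKO, lower in both cKO libraries, and its part in the KLF values was not tested.

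*Klf9* and *Klf10* were set beside the signals that induce them. Of 12 genes of the glucocorticoid and thyroid hormone response, 8 were tested and 0 were called, beside 5.22% of all genes. Their median log2 fold change was -0.12. The smallest p belonged to *Mt1*, which encodes a metallothionein and had 159 and 121 normalized counts in wild-type against 355 and 348 in *Foxq1* cKO (log2 fold change 1.34 ± 0.56, SE; unadjusted p of 0.0533 in limma and 0.0465 in DESeq2). All 12 genes of the TGF-beta response were tested and 0 were called, beside the same 5.22% of all genes, with a median log2 fold change of -0.11. There the smallest p belonged to *Eng*, which encodes the coreceptor endoglin and is a known target of KLF6. *Eng* had 48572 and 42547 normalized counts in wild-type against 32840.3 and 40413 in *Foxq1* cKO, lower in both cKO libraries, with a log2 fold change of -0.32 ± 0.14 (SE) and an unadjusted p of 0.0564. *Tgif1*, named after its values were seen, had nearly the same unadjusted limma p (0.0571) in the other direction. It was higher in both cKO libraries, with a log2 fold change of 0.75 ± 0.32 (SE). Of the 12 TGF-beta genes, 5 had a positive and 7 a negative estimate.

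**Figure D4:**
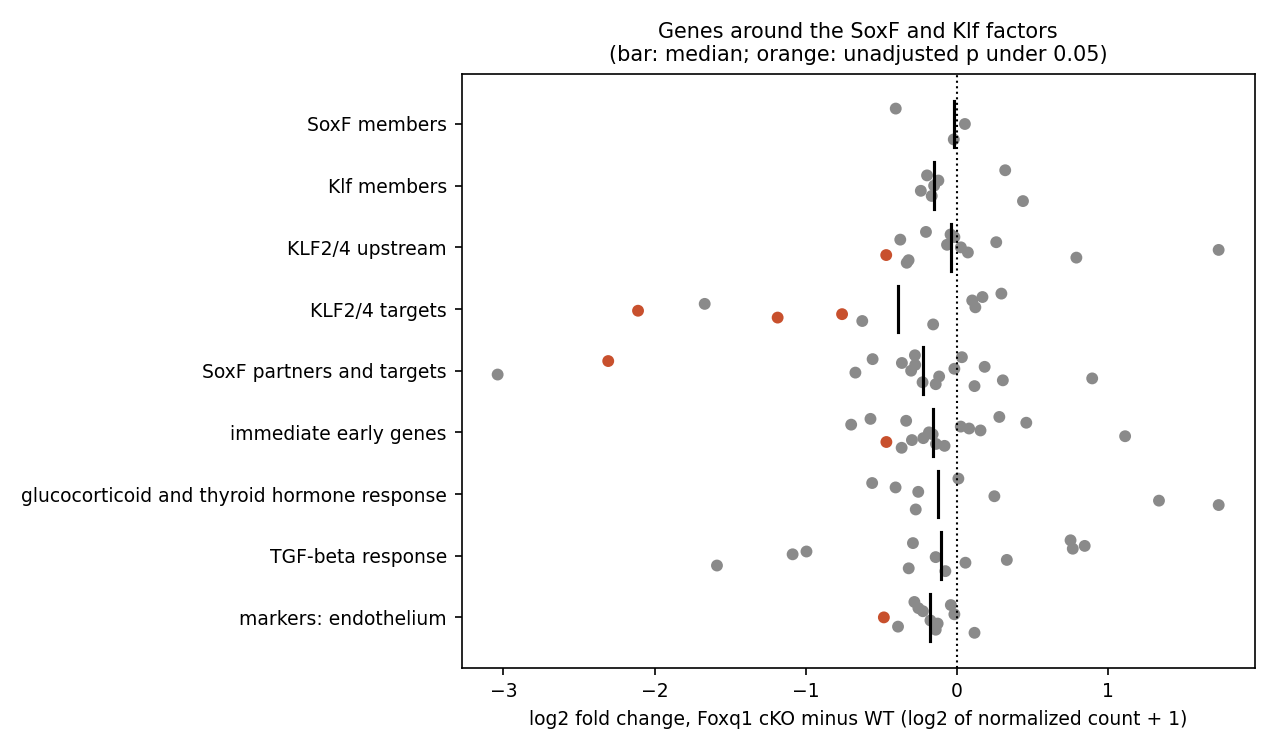
Log2 fold changes, *Foxq1* cKO minus wild-type, of the 10 factors and of the genes in 6 lists around them, with the endothelial markers last. Each point is a gene, the bar is the median and orange marks an unadjusted limma p under 0.05, which is seen in none of the 10 factors, in 3 KLF2 and KLF4 targets and in 1 gene each of the upstream, SoxF partner, immediate early and endothelial marker lists.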

How the data were processed

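Total RNA of CD31-sorted ECs was sequenced (Smart-seq2, per the study's methods). The authors deposited a normalized signal per gene for each of the 4 samples. Their processing notes name TopHat2 2.0.12, Bowtie2 2.2.3, HTSeq 0.6.0 and mm9. All deposited values (100%, within 0.01 reads) were whole multiples of what 1 read is worth in their library, so the signal is reads divided by a size factor (0.919 to 1.19). Repeated lines (1207361) were reduced to 12693 symbols, none of them without reads in any library. Genes with a mean of at least 10 were tested with limma 3.58.1 (lmFit, eBayes with a trend; R 4.3.3) on log2(value + 1), two-sided, with Benjamini-Hochberg adjustment. DESeq2 1.42.0 and edgeR 4.0.16 (quasi-likelihood, TMM) were run on the recovered reads. The code was tested on simulated data. Gene IDs were matched to a GRCm38 annotation, which gave the coordinates and lengths.

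The factors and lists were chosen with earlier results of these data known. Named by rule were *Foxq1*, the 10 factors, *Klf1*, *Sox2*, the best expressed gene of each marker list, and in each list the genes with an unadjusted p under 0.05 or, failing that, the smallest p. Samples were grouped by label, without pairing. The columns of all 4 samples were used, and no comparison of the authors was.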

Additional observations from a re-analysis of the deposited data

How the results depend on the processing

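Of 120 factor results under 12 alternatives, 114 kept direction and call, 1 gained a call and 5 changed sign. At an unadjusted p under 0.05, 651 genes were called, and 276 (without *Foxq1* cKO replicate 1) to 1576 (without wild-type replicate 2) with 1 sample left out, where the lone sample is assumed to vary like the other group. After adjustment DESeq2 called 59 genes. Of the 10 factors DESeq2 called 1, and 0 to 2 were called with 1 sample left out (2 without wild-type replicate 2). In the related lists 6 genes were called, 11 without moderation, 12 in DESeq2 and 3 (without *Foxq1* cKO replicate 1) to 17 (without wild-type replicate 2) with 1 sample left out, with 11 without *Foxq1* cKO replicate 2. Quantile normalization turned the log2 fold change of *Sox17* to 0.085, *Rgs5* to -0.064, *Hba-a1* to 0.083 and *Sox2* to -0.15. Scaling to the endothelial markers shifted the median of all genes to 0.19 and the calls from 271 higher and 380 lower to 512 and 187 (337 and 338 in eBayes without a trend). It turned *Sox17* to 0.16, *Klf2* to 0.016, *Klf4* to 0.032, *Klf6* to 0.061, *Cldn5* to 0.043, *Gja4* to 0.066, *Aplnr* to 0.061, *Cspg4* to 0.051 and *Hba-a1* to 0.14. With 1 sample left out, signs turned in *Sox17* (-0.14 to 0.095), *Klf3* (-0.60 to 0.12), *Klf4* (-0.45 to 0.15), *Klf7* (-0.52 to 0.12), *Klf9* (-0.14 to 0.78), *Aplnr* (-0.31 to 0.061), *Rgs5* (-0.015 to 0.045), *Hba-a1* (-0.24 to 0.16), *Sox2* (-0.64 to 1.08) and *Nos3* (-0.048 to 0.29). The cause of these changes was not tested. Same-numbered samples did not deviate together (correlation 0.032 over 12472 genes), so the numbers were not used as pairs. The replicate block called 693 genes and 0 of the 10 factors, with an unadjusted p of 0.0587 for *Sox7*, 0.0423 for *Sp8* and 0.0339 for *Gja5*. With 2 libraries a group, the median standard error of 0.50 limits what could be called.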

Other observations

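In limma with all 4 libraries, none of the tested relatives of the 10 factors was called at an unadjusted p under 0.05. Of 19 other KLF and Sp genes, 12 were listed and 11 tested, and 0 were called, beside 5.22% of all genes, with a median log2 fold change of -0.25. *Klf1*, the KLF of red blood cells, was not listed, while the 7 erythroid markers summed to 20859 and 15770 in wild-type against 16022 and 20516 in *Foxq1* cKO. The smallest p among these relatives belonged to *Sp8*, with 425 and 358 normalized counts in wild-type against 11.98 and 216 in *Foxq1* cKO, a log2 fold change of -2.88 ± 1.33 (SE) and an unadjusted p of 0.0730. The cKO libraries of *Sp8* differed more from each other than the second of them did from wild-type. Without *Foxq1* cKO replicate 2 the log2 fold change of *Sp8* was -4.91, which was called (unadjusted p of 0.00426), and without replicate 1 it was -0.85.

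Of 16 other Sox genes, 10 were tested and 0 were called, beside 5.22% of all genes, with a median log2 fold change of 0.035. *Sox4*, of the SoxC group, had 1352 and 1459.5 normalized counts in wild-type against 2630.2 and 1699 in *Foxq1* cKO, higher in both cKO libraries, with a log2 fold change of 0.59 ± 0.28 (SE) and an unadjusted p of 0.0834. *Sox4* was called without *Foxq1* cKO replicate 2 (0.90, unadjusted p of 0.0400), and without replicate 1 it was at 0.27. *Sox2*, which marks neural progenitors, had 26 and 6 reads in wild-type against 10 and 17 in *Foxq1* cKO, so it was close to the lowest level the table holds.

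The summed levels of the remaining marker lists were 12184 and 9960.5 in wild-type against 8351 and 9290 in *Foxq1* cKO for 9 arterial genes, 80300 and 87564 against 66094 and 68892 for 6 venous genes, 6019 and 5576 against 4153 and 5823 for 7 neuronal genes, and 22737 and 22598 against 23803 and 20382 for 7 genes of progenitors and astrocytes. The arterial and venous sums were lower in both cKO libraries, and the neuronal and progenitor sums overlapped. Of the 9 arterial genes, 3 had a positive and 6 a negative log2 fold change, so their sum does not stand for each of them. *Efnb2* was higher in both cKO libraries. Without *Vwf*, left out after its values were seen, the venous sums were 57716 and 69258 against 58980.0 and 63495, and overlapped. Among the markers of ECs and of other cells, limma called 3 genes lower (beside 3.05% of all genes), *Flt1* (log2 fold change -0.48, unadjusted p of 0.0463), *Vwf* (-1.71, 8.84e-05) and the microglial gene *Csf1r* (-0.83, 0.0109). The call of *Flt1* was lost in 4 of 12 alternatives, scaling to the endothelial markers among them, and in 3 of 4 fits with 1 library left out (-0.74 without wild-type replicate 2, which kept it, to -0.22 without wild-type replicate 1). That of *Csf1r* was lost in 2 of 12 alternatives, without wild-type replicate 1 and without *Foxq1* cKO replicate 2, and that of *Vwf* was kept in all 12 alternatives and all 4 such fits. Over these markers, the 8 related lists and the 10 factors, limma with all 4 libraries called no gene higher, beside 2.17% of all genes. DESeq2 called *Map2k5*, *Hdac7*, *Mt1* and *Nes* higher (unadjusted p of 0.0496, 0.0457, 0.0465 and 0.0418), where it called 6.49% of all genes in either direction.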
